A study of Rattus norvegicus with 14 samples.

Results

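The DNA methylation machinery of 7 rat cell lines is described here through 5 genes, Dnmt1, Dnmt3a, Dnmt3b, Dnmt3l and Uhrf1, of 24808 genes that passed the filter on dim probes. All non-control probes named for these genes were taken, 6 probes of 41012. Dnmt1 had 2 probes and each other gene had 1. The genes were chosen by their measured differences between blastocyst and bone marrow lines and between both and the mesenchymal line, so those differences are given as a description with no test. Each of the 5 genes passed the filter, under which some line had to show the probe well above background on its 2 arrays.

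DNA methylation in mammals is laid down on cytosines of CG dinucleotides by the de novo enzymes Dnmt3a and Dnmt3b. Dnmt3l has no catalytic activity of its own and, in mouse germ cells and early embryos, stimulates both enzymes. Once set, the marks are copied at replication by Dnmt1, which Uhrf1 brings to half-methylated DNA. In the mouse, extraembryonic lineages such as the primitive endoderm keep less DNA methylation than the embryo proper.

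Total RNA was measured on 14 one-colour arrays, and each line had an array A and an array B. The study grew blastocyst and bone marrow cells in a medium made for multipotent adult progenitor cells and asked whether lines with features of the hypoblast, the primitive endoderm, arise from both. The blastocyst lines were Fi1 (male, Fischer rat), Fi2 (female, Fischer) and Wk8 (female, Wistar-Kyoto). The bone marrow lines were CL19 (female), 3C3 (male) and RMAPC-1 (male), all from Fischer rats. RClone-2, a male Fischer mesenchymal line, was the only control line, so its spread between lines is unknown. These 6 blastocyst and bone marrow lines are called stem cell lines below. The labels do not say whether arrays A and B came from separate cultures, so the 2 were averaged and the line was the unit, with the number of lines limiting the precision. Strain went with 1 line only and could not be told apart from that line.

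The labels were checked against marker genes, counted where both arrays were above background. All 10 primitive endoderm markers were above background in each stem cell line, with mean levels of 5.09 to 5.39 in these lines and -1.63 in RClone-2. In RClone-2 9 of the 10, all but Sox7, were also above background, so the level and not the count set the lines apart. Of 10 mesenchymal markers, 4 were above background in the stem cell lines and 10 in RClone-2. Col1a1, Col1a2, Twist1 and Twist2 were above background in every stem cell line, and the defining mesenchymal gene Thy1 was so in none. The mean level of the 10 was -6.28 to -5.76 in the stem cell lines and 4.23 in RClone-2. Of 7 trophoblast markers with a probe, 3 to 4 were above background in the stem cell lines and 2 in RClone-2. Of 9 blood markers, 4 to 5 were above background in the stem cell lines and 3 in RClone-2, and Ptprc, Cd34, Itgam and Vav1 were so in no line. Of 6 pluripotency markers with a probe, 3 were above background in each stem cell line, while Sox2, Fgf4 and Esrrb were not. Slides went with the groups in part, because slides 1 and 3 held the 3 blastocyst lines with CL19, while slides 2 and 4 held RClone-2 with 3C3 and RMAPC-1. All levels below are log2 processed signals relative to the 75th percentile of the same array. A lower level can come from fewer cells that make a transcript or from less RNA per cell, which cannot be told apart in bulk RNA.

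The probe sequences are shown because each level rests on 1 stretch of 60 bases of a transcript. Positions are those of the array design on the rn4 assembly. The Dnmt3l probe (A_44_P515281) lies at chr20:10959229-10959288, minus strand. Of the Dnmt1 probes, A_44_P125681 lies at chr8:19929047-19929106 and A_44_P388853 spans 2368 bases at chr8:19952832-19955199, both on the minus strand. The Uhrf1 probe (A_44_P520058) spans 1304 bases of sequence not placed on a chromosome. A span above 60 bases means that the probe crosses at least 1 exon junction. Probe A_44_P456985 was designed to a locus that RefSeq now names Dnmt3a-ps1, on the plus strand at chr14:59287882-59287941, and A_44_P513687 to a predicted transcript described as similar to Dnmt3a. Neither belongs to the 5 genes, and both are shown because their levels are set beside those of Dnmt3a. The Dnmt3a probe (A_44_P374741, chr6:26878369-26878428, plus strand) and the Dnmt3b probe (A_44_P287958, chr3:144069022-144069081, plus strand) are given by position.
Dnmt3l, A_44_P515281: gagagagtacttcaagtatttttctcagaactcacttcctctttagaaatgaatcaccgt
Dnmt1, A_44_P125681: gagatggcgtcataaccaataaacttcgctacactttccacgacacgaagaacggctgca
Dnmt1, A_44_P388853: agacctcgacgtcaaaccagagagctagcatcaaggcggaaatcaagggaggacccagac
Uhrf1, A_44_P520058: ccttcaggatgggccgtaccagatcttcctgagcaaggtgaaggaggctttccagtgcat
Dnmt3a-ps1, A_44_P456985: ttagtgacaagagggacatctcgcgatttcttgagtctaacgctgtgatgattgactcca
Similar to Dnmt3a, A_44_P513687: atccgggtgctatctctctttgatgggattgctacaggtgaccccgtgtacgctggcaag

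Dnmt3l and Dnmt3a had the widest differences among the 6 stem cell lines, so the 250 bases before their annotated starts are shown as well, from RefSeq on the GRCr8 assembly with each CG in capitals. Of the 5 genes, 4 had an entry, and Uhrf1 had 3 starts. The Dnmt3a stretch (chr6:32598352-32598601, plus strand) held 18 CG, and 20.1% of 33469 promoters of this length held at least as many. The Dnmt3l stretch (chr20:10628990-10629239, minus strand) held 8 CG, and 41.6% of promoters held at least as many. The GC box GGGCGG, read on both strands, occurred once in the Dnmt3a stretch and 2 times in that of Dnmt3l, and 30.5% of promoters held it. The letters ATGCAAAT, TTTCGCGC, TTTGGCGC and CCAAT, read on both strands, were in neither stretch. TTTCGCGC occurred once before the Uhrf1 start at chr9:1222936-1223185, and 0.248% of promoters held it.
Dnmt3a, before the start: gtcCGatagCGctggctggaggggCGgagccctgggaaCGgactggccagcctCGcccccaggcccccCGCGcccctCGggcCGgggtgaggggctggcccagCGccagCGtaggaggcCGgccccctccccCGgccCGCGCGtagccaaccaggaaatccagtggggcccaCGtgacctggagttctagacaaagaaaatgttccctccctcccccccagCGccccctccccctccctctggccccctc
Dnmt3l, before the start: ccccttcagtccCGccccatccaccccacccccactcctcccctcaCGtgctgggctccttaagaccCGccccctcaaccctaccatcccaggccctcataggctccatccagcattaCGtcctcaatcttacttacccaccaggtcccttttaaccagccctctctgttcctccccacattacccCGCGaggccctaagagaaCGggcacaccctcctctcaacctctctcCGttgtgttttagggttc

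Both de novo enzymes and their cofactor were lowest in RClone-2, higher in the blastocyst lines and highest in the bone marrow lines. Dnmt1 and Uhrf1 differed far less among the lines. Dnmt3l was 7.98-fold lower in blastocyst than in bone marrow lines, Dnmt3a 5.16-fold lower and Dnmt3b 2.62-fold lower. For comparison, 24.4% of 24808 genes were called lower in blastocyst lines and 8.22% higher (limma, Benjamini-Hochberg adjusted p under 0.05). Since the genes were selected on this contrast, nothing is read from that share.

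**Figure D1:**
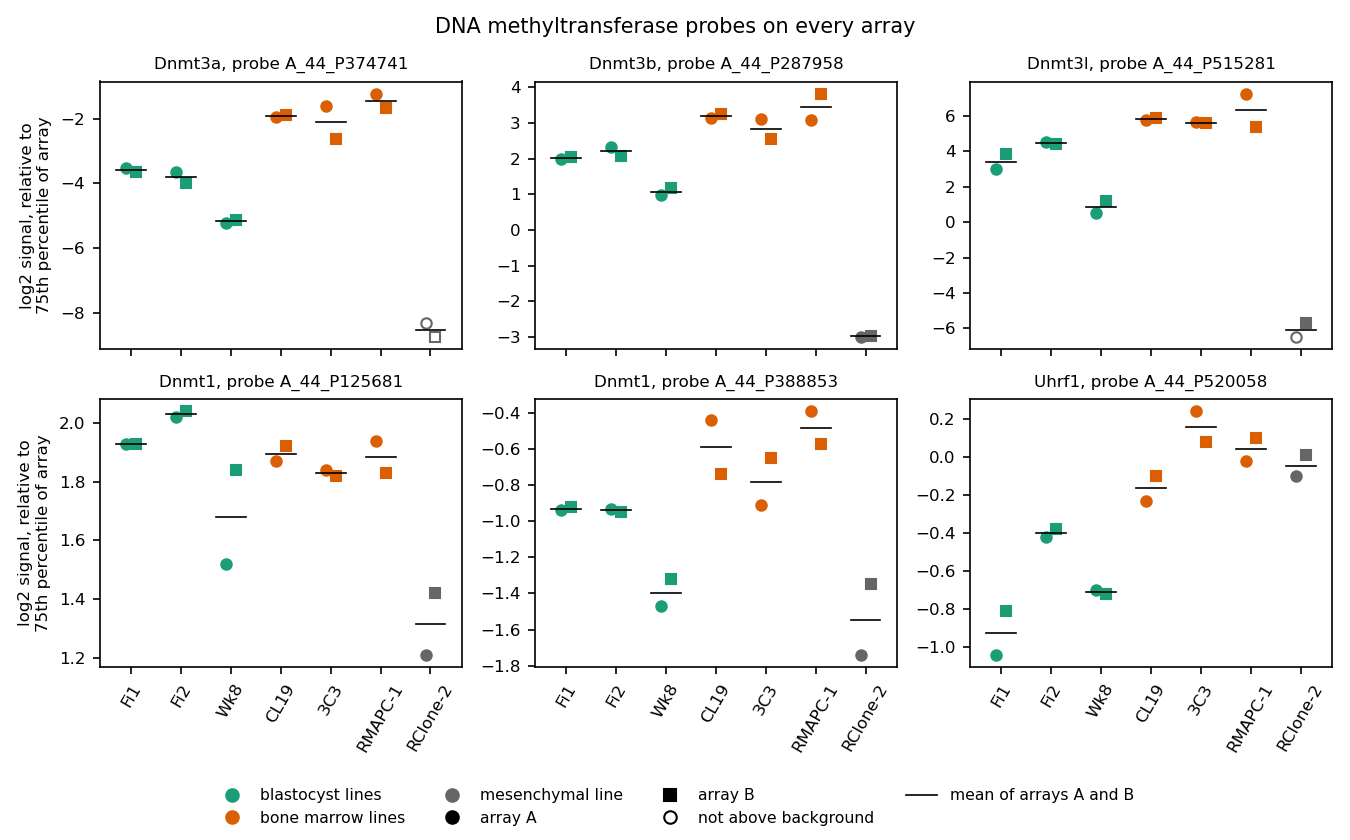
Level of each probe (y axis, log2 signal relative to the 75th percentile of the array) on arrays A (circles) and B (squares) of each line (x axis), with open symbols where the probe was not above background and bars at the mean of a line. The y axes differ between panels. Wk8 is the lowest stem cell line for Dnmt3a, Dnmt3b and Dnmt3l, and RClone-2 lies below all stem cell lines for these genes.

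Dnmt3a is a de novo methyltransferase. Its levels on arrays A and B were -3.53 and -3.66 in Fi1, -3.64 and -4.00 in Fi2 and -5.22 and -5.13 in Wk8. In the bone marrow lines they were -1.94 and -1.89 in CL19, -1.61 and -2.62 in 3C3 and -1.23 and -1.67 in RMAPC-1. RClone-2 read -8.31 and -8.76, not well above background on either array. Every bone marrow array was above every blastocyst array. The means were -4.20 ± 0.85 in blastocyst lines and -1.83 ± 0.34 in bone marrow lines (SD, n = 3 each), a log2 difference of -2.37 ± 0.44 (SE). Against the lowest signal called above background in RClone-2, Dnmt3a was at least 6.0-fold higher in blastocyst lines and at least 31.0-fold higher in bone marrow lines. These bounds use, on each RClone-2 array, the higher of that lowest signal and the probe's own. Both differences shrank with normexp background correction. The log2 difference was then -1.26 between blastocyst and bone marrow lines and 1.41 between the stem cell lines and RClone-2.

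Both Dnmt3a-related probes outside the 5 genes gave the same order of groups. Dnmt3a-ps1 (A_44_P456985) averaged -1.36 ± 0.93 in blastocyst lines, 1.12 ± 0.40 in bone marrow lines (SD, n = 3 each) and -5.70 in RClone-2, where 1 of 2 arrays was above background. Probe A_44_P513687 averaged -0.38 ± 0.91 in blastocyst lines, 1.92 ± 0.41 in bone marrow lines and -4.27 in RClone-2. The log2 differences between blastocyst and bone marrow lines were -2.48 ± 0.49 and -2.30 ± 0.48 (SE). Transcripts of closely related loci can bind the same probe, and whether these probes read Dnmt3a itself was not tested. A further probe for a Dnmt3b-related locus, Dnmt3b-ps2 (A_44_P359467), was not above background on any array.

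Dnmt3b is the second de novo enzyme and in the mouse is the main one of the early embryo. It was above background on all 14 arrays. Its levels were 1.98 and 2.05 in Fi1, 2.33 and 2.08 in Fi2 and 0.97 and 1.17 in Wk8. They were 3.13 and 3.24 in CL19, 3.12 and 2.54 in 3C3 and 3.07 and 3.82 in RMAPC-1, against -3.01 and -2.97 in RClone-2. No blastocyst array reached the lowest bone marrow array, and RClone-2 lay far below both groups. The means were 1.76 ± 0.61 in blastocyst lines and 3.15 ± 0.31 in bone marrow lines (SD, n = 3 each), a log2 difference of -1.39 ± 0.34 (SE). Relative to RClone-2, Dnmt3b was 27.0-fold higher in blastocyst lines (log2 difference 4.75 ± 0.48, SE) and 70.7-fold higher in bone marrow lines (6.14 ± 0.48).

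Dnmt3l, the cofactor, showed the widest range of the 5 genes. Its levels were 2.97 and 3.86 in Fi1, 4.51 and 4.40 in Fi2 and 0.52 and 1.17 in Wk8. The bone marrow arrays read 5.73 and 5.86 in CL19, 5.65 and 5.57 in 3C3 and 7.24 and 5.36 in RMAPC-1. RClone-2 read -6.49 and -5.71, with only array B above background. All bone marrow arrays were above all blastocyst arrays, and arrays A and B of RMAPC-1 differed by 1.88, the widest gap of any line for this gene. The means were 2.91 ± 1.86 in blastocyst lines and 5.90 ± 0.36 in bone marrow lines (SD, n = 3 each), a log2 difference of -3.00 ± 0.90 (SE). Without Wk8 this difference was -1.97, and without Fi2 it was -3.77. Over all 6 stem cell lines Dnmt3l averaged 4.40 ± 2.03 (SD), a log2 difference of 10.51 ± 1.19 (SE) from RClone-2. With normexp background correction, which raises dim signals, that difference was 7.48.

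In descending order the line means of Dnmt3l were 6.30 in RMAPC-1, 5.80 in CL19, 5.61 in 3C3, 4.46 in Fi2, 3.42 in Fi1, 0.84 in Wk8 and -6.10 in RClone-2. The steps among RMAPC-1, CL19 and 3C3 were smaller than the gap between arrays A and B of RMAPC-1. Fi2 and Fi1 differed by more than either of their own gaps between arrays, 0.11 and 0.89. Wk8 and RClone-2 each stood apart from their neighbours by more than the gaps of all lines.

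The blastocyst lines were not alike, and Wk8 was the lowest stem cell line for each of these 3 genes. Wk8 lay below the mean of Fi1 and Fi2 by a log2 difference of -1.46 for Dnmt3a, -1.04 for Dnmt3b and -3.09 for Dnmt3l. Wk8 is also the only Wistar-Kyoto line, and strain and line cannot be told apart here. Across the 6 stem cell lines, Pearson's r was 0.955 between Dnmt3a and Dnmt3l, 0.979 between Dnmt3b and Dnmt3l and 0.986 between Dnmt3a and Dnmt3b. These are descriptions over 6 lines whose values share arrays, slides and scaling, and the 2 origins lie apart on each axis. Mean levels of the 6 pluripotency markers with a probe had the same order of groups, at -2.63 to -2.35 in blastocyst lines, -1.82 to -1.60 in bone marrow lines and -7.17 in RClone-2. Only 3 of the 6 were above background in each stem cell line and 1 in RClone-2, so these means include readings near background. The part of these markers in the Dnmt3 levels was not tested.

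**Figure D2:**
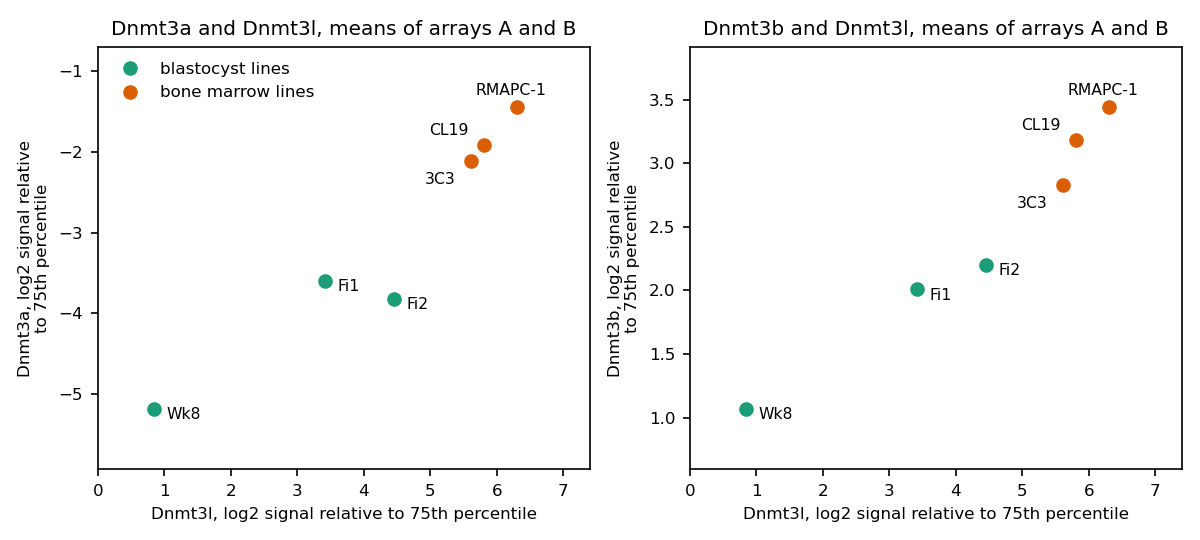
Line means of Dnmt3a (left) and Dnmt3b (right) against those of Dnmt3l, all as log2 signal relative to the 75th percentile of the array, for the 6 stem cell lines. Wk8 lies at the low end of both panels with a Dnmt3l level of 0.84, and the 3 bone marrow lines lie together at the high end.

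Slides were examined as a batch. Within slides 1 and 3, where the blastocyst lines can be set against CL19 alone, the log2 difference was -2.28 for Dnmt3a, -1.42 for Dnmt3b, -2.89 for Dnmt3l and -0.51 for Uhrf1. Within slides 2 and 4, where 3C3 and RMAPC-1 can be set against RClone-2, the difference was 6.13 for Dnmt3b, 12.06 for Dnmt3l and 0.14 for Uhrf1. Over all slides the bone marrow lines differed from RClone-2 by 6.14 for Dnmt3b, 12.01 for Dnmt3l and 0.05 for Uhrf1. The values named within slides had the direction of the same comparison over all slides. No difference is given for Dnmt3a, which was not above background in RClone-2.

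Dnmt1 is the maintenance methyltransferase, and its probes disagreed. Probe A_44_P125681 read 1.93 and 1.93 in Fi1, 2.02 and 2.04 in Fi2 and 1.52 and 1.84 in Wk8. It read 1.87 and 1.92 in CL19, 1.84 and 1.82 in 3C3 and 1.94 and 1.83 in RMAPC-1, against 1.21 and 1.42 in RClone-2. Blastocyst and bone marrow lines overlapped, and RClone-2 was lower than every stem cell array. The log2 difference between blastocyst and bone marrow lines was 0.01 ± 0.13 (SE). Probe A_44_P388853 gave -0.47 ± 0.17, with means of -1.09 ± 0.27 in blastocyst lines and -0.62 ± 0.15 in bone marrow lines (SD, n = 3 each). Under the other scalings of the arrays the first probe ranged from -0.26 to 0.49, so no direction is given for Dnmt1 between the origins. Relative to RClone-2 the stem cell lines were higher by 0.56 ± 0.17 with the first probe and 0.70 ± 0.23 with the second (SE). That difference was 0.05 when arrays were scaled by the spiked-in transcripts.

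Uhrf1 recruits Dnmt1 to newly replicated DNA. Its levels were -1.04 and -0.81 in Fi1, -0.42 and -0.38 in Fi2 and -0.70 and -0.72 in Wk8. They were -0.23 and -0.10 in CL19, 0.24 and 0.08 in 3C3 and -0.02 and 0.10 in RMAPC-1, against -0.10 and 0.01 in RClone-2. The blastocyst arrays were all below the bone marrow arrays, and RClone-2 lay within the range of the bone marrow lines. The means were -0.68 ± 0.26 in blastocyst lines and 0.01 ± 0.16 in bone marrow lines (SD, n = 3 each), a log2 difference of -0.69 ± 0.18 (SE). This difference was -0.21 without scaling between arrays and -0.95 with the spiked-in transcripts, while the median of all genes was -0.22 in this comparison. The stem cell lines differed from RClone-2 by -0.29 ± 0.23 (SE), and under the alternatives by -0.80 to 0.14.

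**Figure D3:**
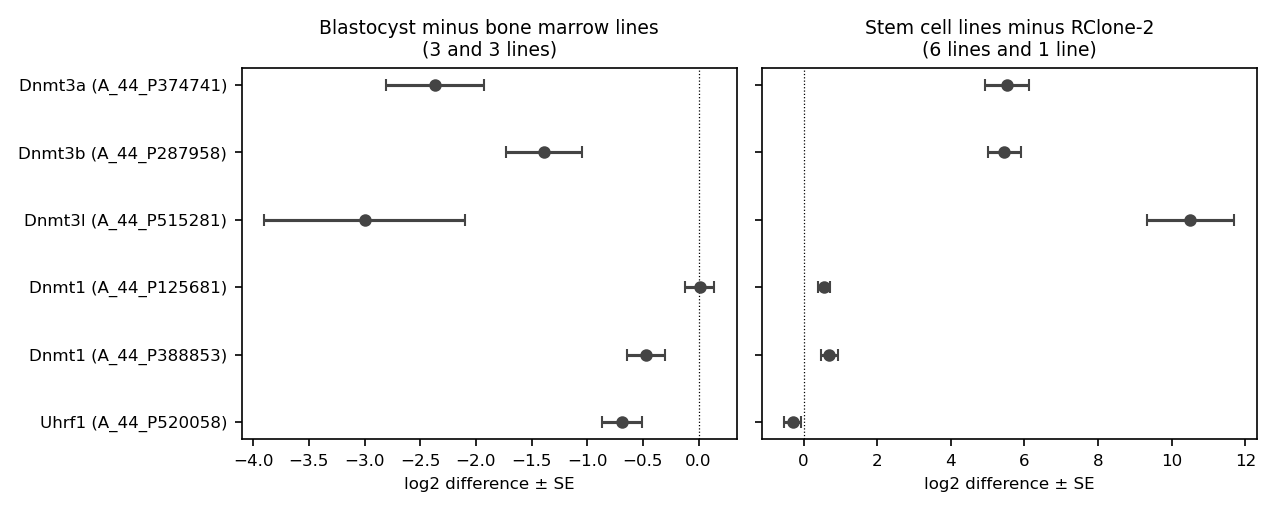
Log2 differences with standard errors (x axis) for each probe (y axis) between blastocyst and bone marrow lines (left) and between the 6 stem cell lines and RClone-2 (right). Dnmt3l has the largest difference in both panels, at -3.00 and 10.51, and Dnmt1 and Uhrf1 lie within 1 log2 unit of 0. Dnmt3a was not above background in RClone-2, so its fitted value on the right is no bound.

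The sex of the lines was not used to choose the genes and could be tested over the 6 stem cell lines, with a term for origin. None of 24808 genes, 0%, passed the threshold (limma, Benjamini-Hochberg), and 725 had an unadjusted p under 0.05. Dnmt3l averaged 5.11 in the 3 male lines and 3.70 in the 3 female lines, and the difference adjusted for origin was 0.46 ± 1.03 (SE, limma adjusted p = 1.00). The adjusted differences of male minus female lines were 0.52 ± 0.46 for Dnmt3a, 0.16 ± 0.39 for Dnmt3b, 0.02 ± 0.15 for Dnmt1 and -0.05 ± 0.20 for Uhrf1. All had a limma adjusted p of 1.00. The standard errors show that a sex difference of 1 log2 unit in Dnmt3l lies within the error of 6 lines.

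The surroundings of these enzymes were followed through lists of genes chosen with earlier results of these data known. The first held enzymes that remove methylation, the TET dioxygenases and repair glycosylases. Of 12 tested, 3 fell in blastocyst relative to bone marrow lines and 0 rose, where 24.4% of all genes were called lower, with a median log2 difference of -0.22, against -0.22 over all genes. Tet1, which oxidises methylcytosine, was above background on 1 of 6 blastocyst arrays and on all 6 bone marrow arrays, and it passed the filter only through the bone marrow lines, so its direction was fixed by the filter. Tet2, a second dioxygenase, was 1.83-fold lower (limma adjusted p = 0.034), and the uracil glycosylase Smug1 1.32-fold lower (limma adjusted p = 0.0468). These 3 calls were lost with normexp correction and without Fi1, Wk8, CL19 or RMAPC-1, and without scaling between arrays 2 genes of the list rose and 0 fell.

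Relative to RClone-2, 4 genes of this list rose and 1 fell, while 24.6% of all genes were called higher than in RClone-2 and 22.3% lower. Tet2 was 12.0-fold higher (3.58 ± 0.30, SE), with 1 of 2 RClone-2 arrays above background. Neil2, a glycosylase, was at least 3.08-fold higher. Tet2 and Neil2 passed the filter only through the stem cell lines, so their directions were fixed by it. Tdg, which excises oxidised methylcytosine, was 3.53-fold higher (limma adjusted p = 0.00038). Idh1, which makes the 2-oxoglutarate that TET enzymes use, was 3.32-fold lower (limma adjusted p = 0.00886). Of the 9 methyl-CpG binding proteins tested, 0 passed between blastocyst and bone marrow lines (limma), and 2 had an unadjusted p under 0.05. Without scaling between arrays 5 of the 9 rose and 0 fell, and scaled by the spiked-in transcripts 0 rose and 2 fell. Against RClone-2, Mbd6 and Mbd1 were 1.78-fold and 1.55-fold higher, and Zbtb38, Mbd2 and Zbtb33 were 3.66-fold, 2.19-fold and 1.78-fold lower (limma adjusted p of 0.00628 to 0.0489).

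Partners and guides of the methyltransferases formed the largest list, with 32 genes tested. Between blastocyst and bone marrow lines 10 fell and 0 rose, beside 24.4% of all genes called lower, and the median was -0.32, against -0.22 over all genes. Dppa3, which in the mouse keeps Uhrf1 from chromatin, was 18.3-fold lower in blastocyst lines (-4.19 ± 0.62, SE, limma adjusted p = 0.00956), with means of -4.68 ± 0.74 and -0.49 ± 1.07 (SD, n = 3 each) in blastocyst and bone marrow lines. Hells, a remodeller needed for methylation of repeats, was 2.19-fold lower (-1.13 ± 0.15, limma adjusted p = 0.00823). Usp7, a deubiquitinase that binds Dnmt1 and Uhrf1, was 1.83-fold lower (limma adjusted p = 0.0338). Leaving out Fi1, Fi2, Wk8, CL19, 3C3 or RMAPC-1 in turn gave 2 to 6 genes that fell in place of 10, and without scaling between arrays 7 rose and 2 fell.

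Against RClone-2, 17 of the 32 rose and 3 fell, beside 24.6% of all genes called higher and 22.3% lower. The median was 0.58, against 0.03 over all genes. Dppa3 was at least 18.4-fold higher in the stem cell lines, and Setdb2, of the family of histone lysine methyltransferases, at least 2.29-fold higher. Suv39h2, of the same family, was 3.73-fold higher (limma adjusted p = 0.00136). Morc1, which in the mouse male germline is needed to silence transposons, was at least 8.99-fold lower and was not above background on any stem cell array. Dppa3, Setdb2 and Morc1 passed the filter only through the side where they were higher, so their directions were fixed by it. Ezh2, the Polycomb methyltransferase, was 1.87-fold lower (limma adjusted p = 0.0177), and Ehmt2 was 1.61-fold lower (limma adjusted p = 0.011). Scaled by the spiked-in transcripts, 7 of the 32 rose and 3 fell.

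The methyl donor cycle supplies S-adenosylmethionine to all methyltransferases. Of 19 genes tested, 2 fell and 0 rose in blastocyst relative to bone marrow lines, a smaller share than the 24.4% of all genes called lower. Gldc, the glycine cleavage decarboxylase, was 16.9-fold lower (-4.08 ± 1.15, SE, limma adjusted p = 0.0412), and was above background on 3 of 6 blastocyst and all 6 bone marrow arrays. Amd1 was 1.55-fold lower (limma adjusted p = 0.0341). Of this list 0 fell with normexp or quantile normalization and without Fi1, CL19, 3C3 or RMAPC-1, and without scaling between arrays 5 rose and 0 fell. Against RClone-2, 3 rose and 3 fell, beside 24.6% of all genes called higher and 22.3% lower. The largest were Ahcyl2, 2.23-fold higher (limma adjusted p = 0.00783), and Ahcyl1, 2.96-fold lower (limma adjusted p = 0.00062). Mat2a, which makes S-adenosylmethionine outside the liver, was 1.55-fold lower (limma adjusted p = 0.0154).

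Because Dnmt1 and Uhrf1 go with DNA replication, 31 S phase genes were read beside them. In blastocyst relative to bone marrow lines 5 fell and 0 rose, with a median of -0.33, while 24.4% of all genes were called lower. Gins2, a replication helicase subunit, was 1.92-fold lower (limma adjusted p = 0.0187), Rrm2, which makes deoxynucleotides, 1.81-fold lower (limma adjusted p = 0.035) and Rfc4, a clamp loader subunit, 1.61-fold lower (limma adjusted p = 0.0499). None fell without Fi1, 3C3 or RMAPC-1, 1 fell without Wk8, and 2 fell and 1 rose without CL19. Without scaling between arrays 5 rose and 0 fell. Relative to RClone-2 the list was mixed, with 8 higher and 3 lower, beside 24.6% of all genes called higher and 22.3% lower. Tyms and Ccne1 were 3.19-fold and 3.05-fold higher (limma adjusted p = 0.00422 and 0.00068), and E2f1 was 2.50-fold lower (limma adjusted p = 0.00395). Scaled by the spiked-in transcripts, 2 genes of the list were higher and 6 lower. A term for the slide pair sets the blastocyst lines against CL19 alone, the only bone marrow line on their slides. A loss of calls with that term therefore cannot be told apart from the loss of compared lines. When the slide pair entered the fit as a term, none of the genes of the 6 lists passed between blastocyst and bone marrow lines, and none of all 24808 genes did (limma), while 6455 genes had an unadjusted p under 0.05.

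Germline genes whose promoters carry DNA methylation in mouse somatic cells are often read beside the Dnmt3 enzymes. Of 26 such genes, 22 had a probe and 12 passed the filter. Of these 12, 10 rose in the stem cell lines relative to RClone-2 and 0 fell, beside 24.6% of all genes called higher and 22.3% lower. The median was 3.79, against 0.03 over all genes. A gene that passed the filter only through the stem cell lines had to be higher there, so neither the count of 10 nor the median is support for a change of the list. Rhox5, an X-linked homeobox gene, averaged 6.95 ± 0.04 in blastocyst lines, 7.49 ± 0.06 in bone marrow lines (SD, n = 3 each) and -0.46 in RClone-2. That was a 205-fold difference between the stem cell lines and RClone-2 (7.68 ± 0.13, SE, limma adjusted p = 1e-06). Tdrkh, a piRNA pathway protein, was at least 22.3-fold higher, and the germ cell helicase Ddx4 at least 15.8-fold higher, both with a direction fixed by the filter. Between blastocyst and bone marrow lines Taf7l, a testis form of a general transcription factor subunit, was 2.61-fold higher (limma adjusted p = 0.0253), and Rhox5 was 1.45-fold lower (limma adjusted p = 0.0156). The list gave no call without Fi1, 3C3 or RMAPC-1, none higher without CL19, and none lower with quantile normalization or normexp correction. Without scaling between arrays 3 rose and 0 fell.

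**Figure D4:**
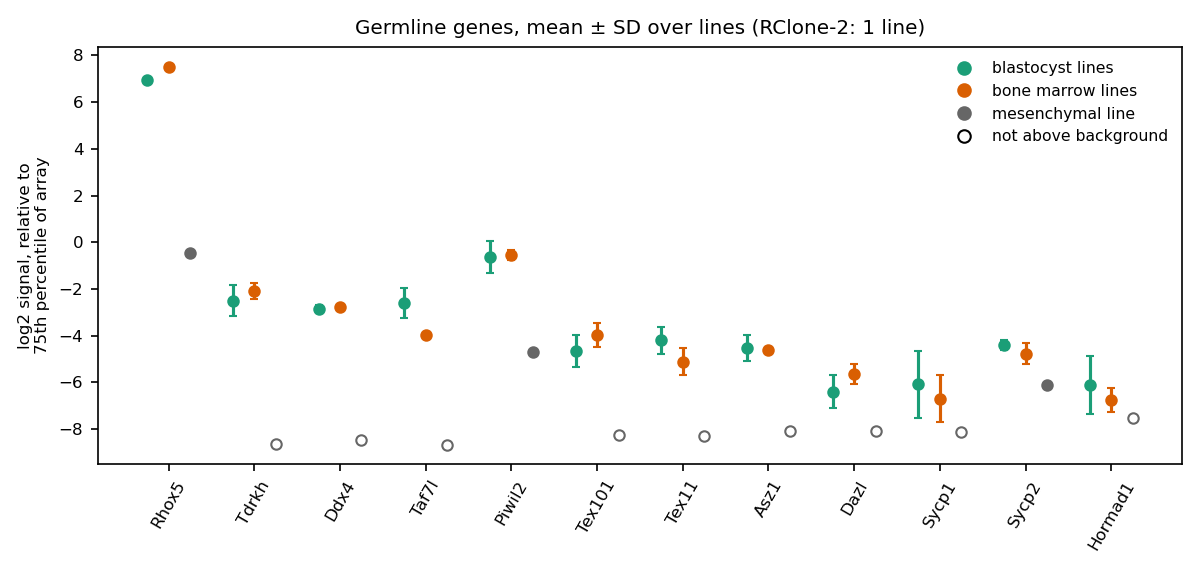
Levels of the 12 germline genes that passed the filter (y axis, log2 signal relative to the 75th percentile of the array), as mean ± SD over 3 lines per origin and as the single RClone-2 value, with open circles where no array of the group was above background. Of the 12 genes, 9 were not above background on either array of RClone-2.

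Genes whose line means followed Dnmt3l most closely were sought among 1333 genes with a symbol, above background in at least 3 stem cell lines and spanning at least 2 log2 units. Pearson's r over the 6 stem cell lines was 0.996 for Rassf4, 0.995 for Amn and Cbx7 and 0.994 for Plac1, Sdsl and Tmem82. Cbx7 was above background on 4 of 6 blastocyst arrays and Plac1 on 5 of 6. Amn encodes part of an endocytic receptor of the visceral endoderm, Cbx7 a Polycomb protein and Plac1 a placental membrane protein. Amn read 3.43 in Fi1, 4.83 in Fi2 and 0.12 in Wk8, and 6.56 in CL19, 6.49 in 3C3 and 6.61 in RMAPC-1, against -5.21 in RClone-2. Wk8 was the lowest stem cell line for each of the 6 genes. This follows from choosing them by r with Dnmt3l, whose lowest stem cell line was Wk8. With RClone-2 included, r stayed at 0.991 for Amn and was 0.597 for Cbx7 and 0.64 for Plac1. The genes with the most opposite pattern were Timp4, Clca4l and Vtcn1, with r of -0.996, -0.993 and -0.992 over the same 6 lines. Timp4 was above background on 3 of 6 bone marrow arrays and Clca4l on 1 of 6. Vtcn1, an inhibitor of T cells, read -5.11 in Fi1, -5.97 in Fi2 and -2.03 in Wk8 and was not above background in any bone marrow line.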

How the data were processed

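Spot values were extracted with Agilent Feature Extraction 10.7.3.1, per the submitters' processing notes. The deposited scanner tables hold, for each spot, a processed signal, a mean signal and a background, each an intensity left unscaled across arrays, plus flags of 0 or 1. Sorted, the log2 values of the deposited series table matched the log2 processed signals array by array, and the table served for that check only.

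From each log2 processed signal the array's 75th percentile over 43379 non-control spots was subtracted. Outlier spots were left out and spots of a probe averaged. Of 41012 probes, 17247 were named through RefSeq accessions, 4608 through symbols or gene IDs (GRCr8, names and promoters only), and 19157 kept the file's name. The brightest probe stood for a gene. The fits used limma 3.58.1 (R 4.3.3) on line means, over 7 lines or, with origin and sex, over 6. Alternatives covered background correction, scaling, filters, probes, slides and left-out lines or arrays. The genes and lists were chosen with earlier results of these data known. List genes named are up to 3 with the largest differences per direction among those that passed, not all printed, and likeness was ranked by Pearson's r. On simulated data the fits were tested for recovery of known changes. Figures were drawn with matplotlib 3.10.9.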

Additional observations from a re-analysis of the deposited data

Results flagged for a closer look

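Uhrf1 differed between the sexes in opposite directions in the 2 origins. The male blastocyst line Fi1 was below both female blastocyst lines, with a male minus female log2 difference of -0.37, while both male bone marrow lines were above the female line CL19, with a difference of 0.27. The interaction of sex and origin over the 6 stem cell lines was -0.64 ± 0.33 (SE, limma adjusted p = 0.997), so the difference did not pass the test. In the bone marrow lines sex went with the slide pair, and the 2 cannot be told apart there. Groups of 3 lines were too small for a test of single outlying lines.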

How the results depend on the processing

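The count of genes called between blastocyst and bone marrow lines, 8092, was 1220 with normexp correction, 2568 without the A arrays, 5344 without the B arrays, 4771 without array A of RMAPC-1, 3188 with slide as a block, and 0 with a term for the slide pair or within slides 1 and 3, where 6455 and 5183 genes had an unadjusted p under 0.05. The term for the slide pair and the fit within slides 1 and 3 both set the blastocyst lines against CL19 alone. Leaving out 1 line gave 2999 to 8092 calls, the highest without RClone-2, which is not compared, and at most 6087 without a compared line. The share of higher calls, 25.2%, was 37.5% with quantile normalization, 40.5% with the median, 42.1% with detected probes, 82.7% without scaling and 12.0% with spike-ins. For the stem cell lines against RClone-2 the 11627 calls were 5833 with normexp, and the share of higher calls, 52.5%, was 63.2% without scaling and 27.9% with spike-ins. The sex comparison gave 5 calls with slide as a block and 0 under the other 24 alternatives. With arrays A and B as a replicate block, 10226, 13165 and 0 genes passed in the 3 comparisons. Dnmt3l kept its direction between the origins under all 25 alternatives and against RClone-2 under all 24. It was chosen on these differences and passed the filter only through the stem cell lines, so the kept direction is no support for them. Against RClone-2 the difference was 7.48 with normexp. Within slides 2 and 4, where only bone marrow lines stand beside RClone-2, it was 12.06. The bone marrow lines over all slides gave 12.01. The causes were not tested.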
